A study of Mus musculus with 18 samples.

Results

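Wnt5a and its receptors Ror1, Ror2, Ryk and Ptk7 were followed through 18 bulk RNA-Seq libraries of embryonic mouse lung. These 5 genes were chosen by name, as the ligand and the single-pass receptors that bind it or act beside it in noncanonical Wnt signaling, and are 5 of the 23420 gene rows listed in each of 3 deposited tables. All 5 had at least 10 normalized counts in every library and were tested in every experiment. In brief, no member passed an adjusted p of 0.05 in any of the 3 experiments when all 6 libraries were used. The largest differences were a Ror1 level 1.61-fold higher in Vangl1/2 knockout lungs and a Wnt5a level 0.684-fold that of the controls in lungs with mesenchymal deletion of Wnt5a.

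Wnt5a is a secreted, lipid-modified glycoprotein that signals mostly without stabilizing β-catenin. Ror1 and Ror2 are paralogous receptors with a Frizzled-like cysteine-rich domain outside the cell that binds Wnt5a, Ryk binds Wnts through a domain related to Wnt inhibitory factor, and Ptk7 is a receptor with an inactive kinase domain that takes part in planar cell polarity. Their signal meets that of Vangl1 and Vangl2, membrane proteins of the core planar cell polarity pathway, and in the embryonic lung Wnt5a is made in the mesenchyme and in the epithelium, where its loss alters branching.

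The study compared lungs that lacked Vangl1 and Vangl2, or that lacked Wnt5a in one tissue layer, with controls to find out which transcripts follow the loss of noncanonical Wnt and planar cell polarity signals. At E12.5, the knockouts were labeled Vangl1-/-; Vangl2-/- and their controls Vangl1-/-, so that both groups carried the trapped Vangl1 allele and differed in Vangl2, whose floxed allele was deleted throughout the embryo by Sox2-Cre. Also at E12.5, Wnt5a f/f; Dermo1Cre mutants, in which Cre is driven from the Twist2 (Dermo1) locus in the mesenchyme, were set against Wnt5a f/+; Dermo1Cre controls. At E13.5, Wnt5a f/f; Sox9Cre mutants, with Cre driven from the Sox9 locus in the epithelium after branching has begun, were set against Wnt5a f/+; Sox9Cre controls. The controls of both Wnt5a experiments therefore carried the Cre and 1 floxed Wnt5a allele, none of the 18 libraries is labeled wild type, and each Cre leaves Wnt5a in the other tissue layer untargeted. Every group held 3 libraries of whole lung. The labels do not say whether replicates came from separate embryos, or from pools, so p-values measure the spread between these libraries, which may be technical.

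Between 15945393 and 19814346 reads per library lay on genes. The values are normalized counts, that is, reads divided by a size factor between 0.952 and 1.07. Of the markers of lung tissue, all 11 of mesenchyme and all 12 of epithelium had at least 10 normalized counts in every library. One library stood apart from its group. Control replicate 2 of the Vangl1/2 experiment differed from control replicates 1 and 3 by a chi-square of 49.2 and 74.2 per gene, whereas the other replicate pairs of the series differed by 3.79 to 15.8. In the knockouts, Vangl2 had 86.5, 79.8 and 89.6 normalized counts against 277, 406 and 334 in the controls (log2 fold change −1.96, standard error 0.17, limma, adjusted p = 0.0318), which fits the labels. Because whole lung was sequenced, fewer cells of a type and less RNA per cell cannot be told apart in any result.

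The ligand was examined first. Wnt5a (ENSMUSG00000021994.15, build mm10, chr14:28504750-28527448, plus strand) has 7823 bases of exon, overlapped on the opposite strand by the antisense gene Gm2670. Whether reads were counted by strand is not given in the sources used here. Where the exons overlap, reads of Wnt5a and of Gm2670 therefore cannot be told apart. Nor do gene counts tell intact transcripts from transcripts of a recombined allele.

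In the mesenchymal deletion, Wnt5a had 472, 430 and 489 normalized counts in the controls and 317, 436 and 230 in the mutants. Mutant replicates 1 and 3 were below every control, and mutant replicate 2 was within the control range. The means were 464 ± 30.8 and 327 ± 103 (SD, n = 3), and the mutants stood at 68.3%, 94.0% and 49.5% of the control mean. The log2 fold change was −0.55 with a standard error of 0.19 and a 95% confidence interval of −0.97 to −0.13, and it did not pass the adjusted threshold (limma, adjusted p = 0.406). Without mutant replicate 2 it was −0.78 (limma, adjusted p = 0.132), and without mutant replicate 3 it was −0.32 (adjusted p = 0.594), within a range of 0.132 to 0.837 over the 6 fits with 1 library left out. With DESeq2 on the recovered reads it was −0.50 (adjusted p = 0.204).

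Markers of several cell types differed with Wnt5a in these mutants, and 0 of the 11 mesenchyme, 12 epithelium and 6 smooth muscle markers passed the adjusted threshold of limma. The summed normalized counts of the 11 mesenchyme markers lay between 85901 and 97048 in the controls and between 77395 and 84661 in the mutants, and 4 of the 11 were lower at an unadjusted p under 0.05, where 4.76% of all genes were. Of the 12 epithelium markers 6 were lower by the same measure, with sums of 22208 to 23792 in the controls and 21262 to 21633 in the mutants. Taken as geometric means instead of sums, the ratio of mesenchyme to epithelium markers was between 1.89 and 1.91 in both groups. Among the mesenchyme markers, Twist2, whose locus carries the Cre in both groups, had 319, 297 and 243 normalized counts in the controls and 190, 187 and 145 in the mutants (log2 fold change −0.72, limma, adjusted p = 0.186). The 6 smooth muscle markers summed to between 11699 and 16231 in the controls and between 7907 and 12673 in the mutants, and 5 of the 6 were lower at an unadjusted p under 0.05. Set against the geometric mean of the mesenchyme markers in the same library, Wnt5a was at 0.160, 0.150 and 0.175 in the controls and at 0.120, 0.163 and 0.0910 in the mutants, a mean of 77.1% of the control mean. Against the epithelium markers it was at a mean of 77.0%. The part of cell numbers in the Wnt5a values was not tested.

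In the epithelial deletion, Wnt5a had 473, 453 and 426 normalized counts in the controls and 442, 362 and 448 in the mutants. Mutant replicate 2 was below every control, and the other two were within the control range. Its log2 fold change was −0.12, with a 95% confidence interval of −0.34 to 0.11 (limma, adjusted p = 0.9999). Against the mesenchyme markers of the same library, Wnt5a was between 0.149 and 0.159 in the controls and between 0.122 and 0.158 in the mutants. Since the mesenchyme was not targeted, this interval is for the whole lung and not for the epithelium.

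In the Vangl1/2 experiment, Wnt5a had 218, 529 and 208 normalized counts in the controls and 289, 313 and 516 in the knockouts. Control replicate 2 was the highest of the 6 libraries, and control replicates 1 and 3 were the lowest. The log2 fold change was 0.32 with a standard error of 0.37 (limma, adjusted p = 0.615). The spread of Wnt5a within this experiment was wide. Its coefficient of variation was 57.4% in the controls, where genes of like level (within 0.5 of its log2 mean) had a median of 13.52%, and 33.5% in the knockouts, where such genes had a median of 7.09%. In the Dermo1-Cre mutants it was 31.6% against 6.84% for genes of like level. In the 3 other groups it was between 5.22% and 11.5%.

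**Figure D1:**
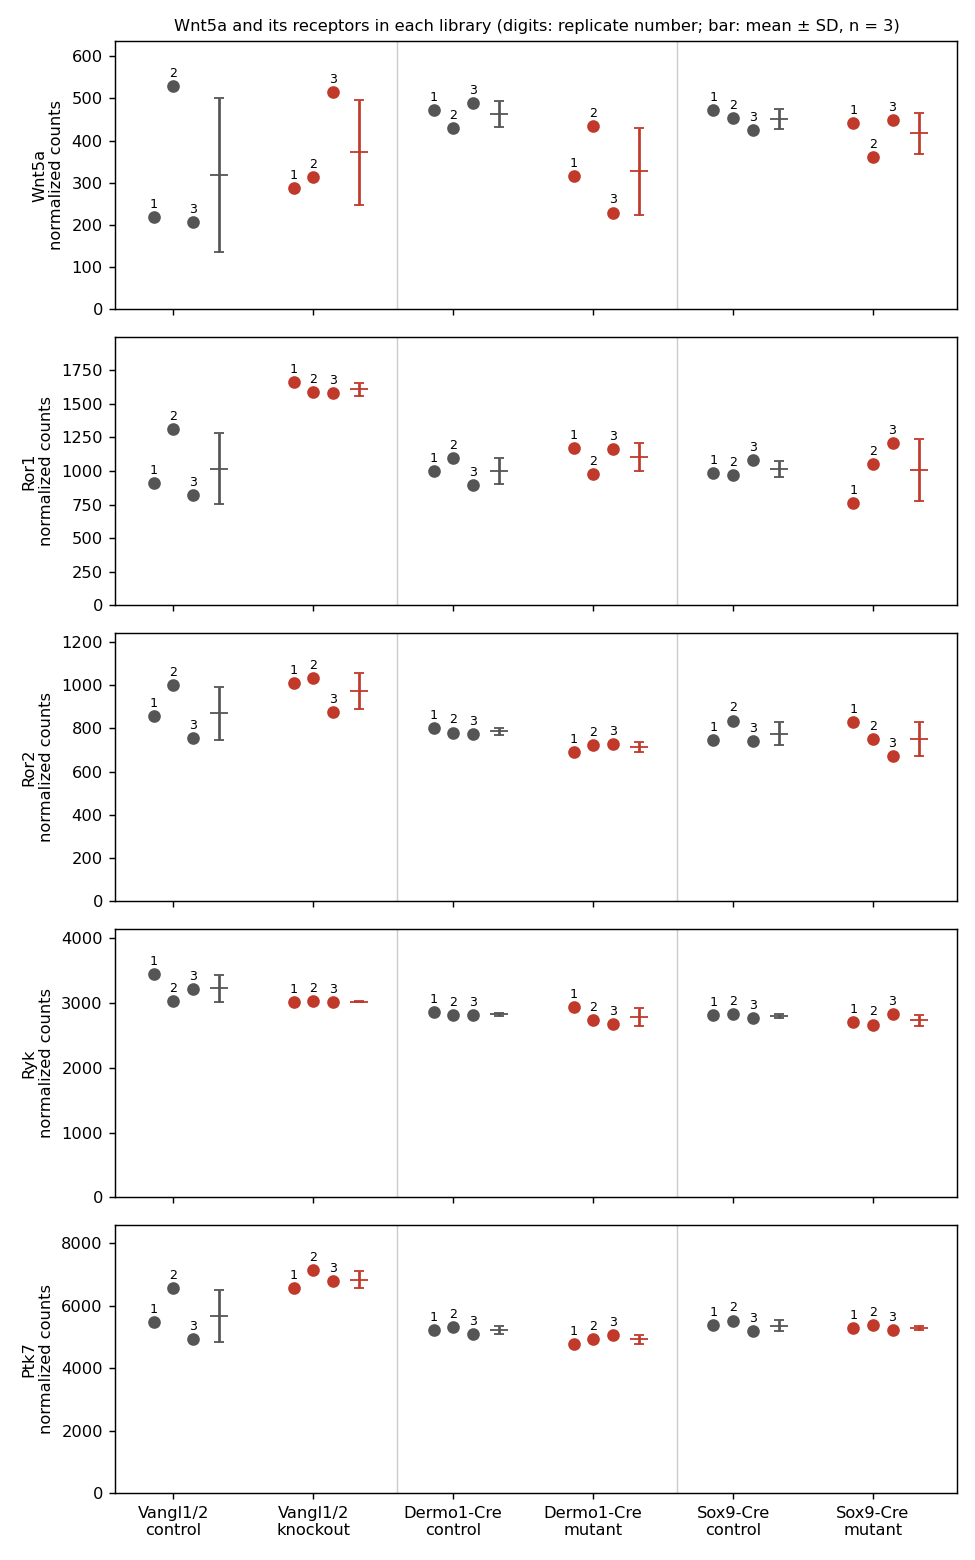
Normalized counts of Wnt5a, Ror1, Ror2, Ryk and Ptk7 (1 panel each, linear axis from 0) in the 18 libraries, with control libraries in gray, mutant or knockout libraries in red, digits for the replicate number and bars for the mean ± SD of 3 libraries. Ror1 was higher in all 3 Vangl1/2 knockout libraries, at 1577 to 1661, than in their controls, at 824 to 1315, and Wnt5a was spread from 208 to 529 in the Vangl1/2 controls.

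The Ror receptors were examined next. Ror1 (ENSMUSG00000035305.5, chr4:100095791-100444765, plus strand, 5762 bases of exon) had 909, 1315 and 824 normalized counts in the Vangl1/2 controls and 1661, 1584 and 1577 in the knockouts. Every knockout was above every control, and the nearest control was again replicate 2. The log2 fold change was 0.69 with a standard error of 0.17 and a 95% confidence interval of 0.31 to 1.07, a 1.61-fold difference. It ranked 59 of 14303 genes by p-value and did not pass the adjusted threshold (limma, adjusted p = 0.233). Of the 5 members, 1 was higher in all knockouts than in all controls, where 13.6% of all genes tested were higher and 8.68% lower without overlap, and 2 were higher at an unadjusted p under 0.05, where 12% of all genes were. At an adjusted p under 0.05, 0 members were called, against 0.00699% of all genes by limma. Neither edgeR, which called 1 gene, nor DESeq2, which called 20, called a member. With 3 libraries a group, the smallest p that a two-sided exact permutation test of a single member can give is 0.1.

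Ror2 (ENSMUSG00000021464.14, chr13:53109312-53286124, minus strand, 4242 bases of exon) had 857, 999 and 755 normalized counts in the Vangl1/2 controls and 1008, 1033 and 875 in the knockouts. The lowest knockout lay within the control range. Its log2 fold change was 0.17 with a standard error of 0.13 (limma, adjusted p = 0.448).

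The ratio of Ror1 to Ror2 per kilobase of exon, which needs no scaling between libraries, was 0.781, 0.969 and 0.804 in the Vangl1/2 controls and 1.21, 1.13 and 1.33 in the knockouts. The groups did not overlap, and Ror1 was the lower paralog in the 3 controls and the higher in the 3 knockouts. How often ratios of other gene pairs separate these groups was not counted. In the Dermo1-Cre experiment the ratio was 0.918, 1.03 and 0.853 in the controls and 1.25, 1.001 and 1.17 in the mutants, which overlapped. In the Sox9-Cre experiment it was 0.974, 0.856 and 1.07 in the controls and 0.674, 1.03 and 1.32 in the mutants, whose range held the whole control range.

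**Figure D2:**
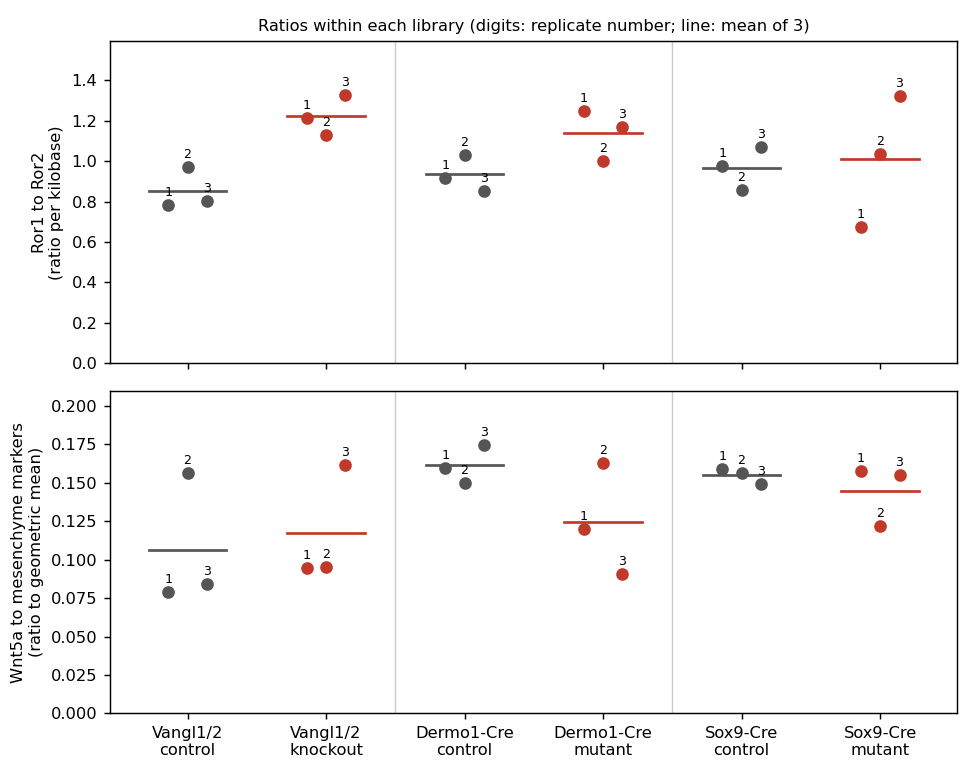
Ratio of Ror1 to Ror2 per kilobase of exon (top) and of Wnt5a to the geometric mean of 11 mesenchyme markers (bottom) within each of the 18 libraries, with controls in gray, mutants or knockouts in red, digits for the replicate number and lines for the mean of 3. The Ror1 to Ror2 ratio lay between 0.781 and 0.969 in the Vangl1/2 controls and between 1.13 and 1.33 in the knockouts, and the Wnt5a ratio of the Dermo1-Cre mutants lay between 0.0910 and 0.163 beside controls at 0.150 to 0.175.

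In the Dermo1-Cre experiment, Ror2 had 803, 781 and 775 normalized counts in the controls and 689, 721 and 730 in the mutants. Every mutant was below every control, at 87.6% to 92.9% of the control mean. The log2 fold change of −0.14 had a standard error of 0.052 and did not pass the adjusted threshold (limma, adjusted p = 0.427). Ror1 had 1001, 1093 and 898 normalized counts in the controls and 1168, 980 and 1160 in the mutants, with mutant replicate 2 within the control range (log2 fold change 0.15, standard error 0.087, limma, adjusted p = 0.593). Relative to the mesenchyme markers of the same library, Ror2 was between 0.271 and 0.276 in the controls and between 0.261 and 0.289 in the mutants, so that on this scale the groups overlapped. Ror1 on the same scale was at 0.338, 0.382 and 0.320 in the controls and at 0.442, 0.366 and 0.460 in the mutants, again with mutant replicate 2 within the control range.

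In the Sox9-Cre experiment, Ror1 had 987, 973 and 1079 normalized counts in the controls and 760, 1051 and 1209 in the mutants, and Ror2 had 746, 836 and 743 in the controls and 831, 749 and 673 in the mutants. The mutant replicate with the least Ror1 had the most Ror2, and the one with the most Ror1 had the least Ror2. The log2 fold changes were −0.034 (95% confidence interval −0.37 to 0.31) and −0.049 (−0.25 to 0.15), each with an adjusted p of 0.9999 from limma. Both were within the spread of the replicates.

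Ryk (ENSMUSG00000032547.12, chr9:102834917-102908305, plus strand, 4534 bases of exon) differed little between the groups. It had 3447, 3025 and 3213 normalized counts in the Vangl1/2 controls and 3014, 3038 and 3018 in the knockouts, which overlapped. Its log2 fold change was −0.093 with a 95% confidence interval of −0.29 to 0.11 (limma, adjusted p = 0.534). In the Dermo1-Cre experiment Ryk had 2856, 2808 and 2811 in the controls and 2936, 2742 and 2680 in the mutants (log2 fold change −0.021, interval −0.12 to 0.078, limma, adjusted p = 0.894). In the Sox9-Cre experiment it had 2812, 2824 and 2763 in the controls and 2700, 2669 and 2823 in the mutants (−0.036, interval −0.14 to 0.069, limma, adjusted p = 0.9999). In each experiment the mutant and control ranges overlapped. The coefficient of variation of Ryk was between 0.423% and 6.56% over the 6 groups, and in 5 of them it was below the median of genes of like level.

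Ptk7 (ENSMUSG00000023972.10, chr17:46564471-46629504, minus strand, 5384 bases of exon) had 5492, 6585 and 4940 normalized counts in the Vangl1/2 controls and 6583, 7146 and 6797 in the knockouts. Control replicate 2 was level with the lowest knockout, and the other two controls were below every knockout. The log2 fold change was 0.28 with a standard error of 0.12 and a 95% confidence interval of 0.0034 to 0.56 (limma, adjusted p = 0.242). In the Dermo1-Cre experiment Ptk7 had 5240, 5332 and 5105 in the controls and 4785, 4936 and 5073 in the mutants. Every mutant was below every control, at 91.6% to 97.1% of the control mean (log2 fold change −0.084, standard error 0.039, limma, adjusted p = 0.508). Relative to the mesenchyme markers, Ptk7 was between 1.77 and 1.86 in these controls and between 1.81 and 2.01 in the mutants, with overlap and a mean of 104% of the control mean. In the Sox9-Cre experiment it had 5379, 5532 and 5186 in the controls and 5288, 5375 and 5227 in the mutants, all within the control range (−0.018, interval −0.12 to 0.086, limma, adjusted p = 0.9999).

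Counted over the 5 members, 2 were lower in all Dermo1-Cre mutants than in all controls (Ror2 and Ptk7). Of all genes tested, 15.6% did not overlap, 7.65% higher and 7.92% lower. At an unadjusted p under 0.05, 2 members were lower, Ror2 and Wnt5a, where 10.2% of all genes passed and 4.76% were lower. Wnt5a is the gene targeted in this experiment. At an adjusted p under 0.05, 0 members were called in this experiment, against 0.014% of all genes, 0.007% in each direction. In the Sox9-Cre experiment 0 members were called at an adjusted p under 0.05, against 0% of all genes, 0 at an unadjusted p under 0.05, against 3.9%, and 0 did not overlap, against 8.78% (4.42% higher and 4.36% lower). Neither edgeR nor DESeq2 on the recovered reads called a member in either experiment. The median log2 fold change of the members was 0.28 in the Vangl1/2, −0.084 in the Dermo1-Cre and −0.036 in the Sox9-Cre experiment, beside −0.0093, 0.00071 and 0.0013 over all genes tested. The Dermo1-Cre and Sox9-Cre medians include the targeted Wnt5a.

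The calls in the Vangl1/2 experiment turned on control replicate 2. Without it, Ror1 was higher by 0.89 on the log2 scale (adjusted p = 5.90e-05), Wnt5a by 0.76 (adjusted p = 0.0166), Ptk7 by 0.39 (adjusted p = 0.00174) and Ror2 by 0.27 (adjusted p = 0.0486), and these 4 members passed limma's threshold. Ryk had a log2 fold change of −0.14 and did not (adjusted p = 0.110). In that fit 43.6% of all genes tested passed, 21.7% in the higher direction, whereas in the fit of all 6 libraries Vangl2 alone did. Over the 6 fits with 1 library left out, the adjusted p ranged from 5.90e-05 to 0.594 for Ror1, from 0.0166 to 0.945 for Wnt5a, from 0.00174 to 0.594 for Ptk7 and from 0.0486 to 0.837 for Ror2. With each library's trend on exon length also removed, a setting chosen after seeing the data in which 27.9% of all genes passed, Ror1 (0.76, adjusted p = 0.000421) and Ptk7 (0.30, adjusted p = 0.0121) passed and Wnt5a (0.47, adjusted p = 0.108) and Ror2 (0.26, adjusted p = 0.0678) did not.

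Control replicate 2 also differed from the other 2 controls in its tissue markers. The mesenchyme markers summed to 104175 normalized counts in it, to 63674 and 49353 in control replicates 1 and 3, and to between 78672 and 97823 in the knockouts. The erythroid markers summed to 33586 in it, to 57535 and 51364 in control replicates 1 and 3, and to between 31333 and 44559 in the knockouts. In the Dermo1-Cre controls, also at E12.5 but of another genotype, mesenchyme sums were 85901 to 97048 and erythroid sums 26159 to 32964. Wnt5a was at an RPM of 26.6 to 30.7 there, 28.7 in control replicate 2, and 11.1 and 10.3 in control replicates 1 and 3. The fit without control replicate 2 kept control replicates 1 and 3 of the Vangl1/2 experiment. Against the geometric mean of the mesenchyme markers in the same library, Ror1 was at 0.329, 0.389 and 0.334 in the controls and at 0.542, 0.480 and 0.495 in the knockouts. The groups did not overlap on this scale, with the knockouts at a mean of 144% of the control mean. As normalized counts 22.3% of all genes tested did not overlap, and the share on this scale was not taken. The mesenchyme markers themselves were not level, with 3 of the 11 higher and 3 lower in the knockouts without overlap. Ptk7 was between 1.95 and 1.999 in the controls and between 2.13 and 2.17 in the knockouts, without overlap, and Ror2 was between 0.296 and 0.311 and between 0.275 and 0.329, with overlap. Wnt5a was at 0.0790, 0.157 and 0.0842 in the controls and at 0.0943, 0.0950 and 0.162 in the knockouts, with overlap. Against the epithelium markers, Ror1 was between 0.522 and 0.955 in the controls and between 0.978 and 1.25 in the knockouts, without overlap, whereas Ptk7 was between 3.13 and 4.78 and between 4.22 and 5.62, with overlap. In the knockouts 4 of 6 smooth muscle markers were lower (median log2 fold change −0.49) and 3 of the 5 mesothelium markers tested were higher (median 0.50) at an unadjusted p under 0.05. Of the 11 mesenchyme markers, 3 were higher and 2 lower by that measure, beside 12% of all genes higher and 8.56% lower. The part of tissue composition in the differences was not tested.

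**Figure D3:**
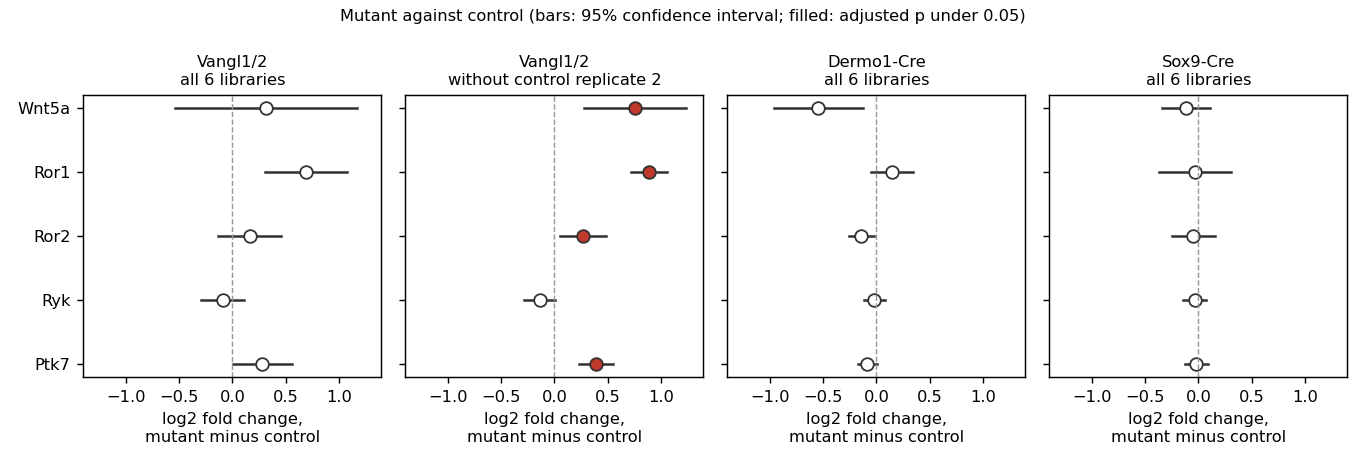
Log2 fold change of each member, mutant minus control, in the Vangl1/2 experiment with all 6 libraries and without control replicate 2, and in the Dermo1-Cre and Sox9-Cre experiments. Bars are 95% confidence intervals and filled symbols mark an adjusted p under 0.05 from limma: 0 of 5 members were filled with all libraries in each experiment, and 4 of 5 without control replicate 2 of the Vangl1/2 experiment.

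The levels of the 5 genes were then set in order as RPKM, which divides by the exon length in kilobases, so that genes of unequal length could be compared. In the Dermo1-Cre controls at E12.5, Ptk7 stood at an RPKM of 60.4 ± 0.913 (SD, n = 3), Ryk at 38.7 ± 0.374, Ror2 at 11.5 ± 0.179, Ror1 at 10.8 ± 0.984 and Wnt5a at 3.69 ± 0.267. In the Sox9-Cre controls at E13.5 the same genes stood at 61.5 ± 1.87, 38.1 ± 0.402, 11.3 ± 0.738, 10.9 ± 0.632 and 3.56 ± 0.188. In the Vangl1/2 controls they stood at 54.5 ± 10.7, 36.6 ± 1.83, 10.6 ± 2.00, 9.14 ± 2.82 and 2.13 ± 1.33. In each of the 6 groups Ptk7 was highest, Ryk was next, both Ror genes followed and Wnt5a was lowest, with no overlap between these 4 levels. Ror1 and Ror2 were neighbors whose ranges overlapped in 5 groups, and in the Vangl1/2 knockouts Ror1 (14.7 ± 0.258) was above Ror2 (12.1 ± 0.957) without overlap. With the longest coding transcript as the length, the mean of Ryk was 58.2 in the Vangl1/2 controls and 61.6 and 60.6 in the Dermo1-Cre and Sox9-Cre controls, still below Ptk7 at 69.2, 76.7 and 78.2. In the Vangl1/2 controls the SD with this length was 2.91 for Ryk and 13.6 for Ptk7, and their ranges overlapped.

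**Figure D4:**
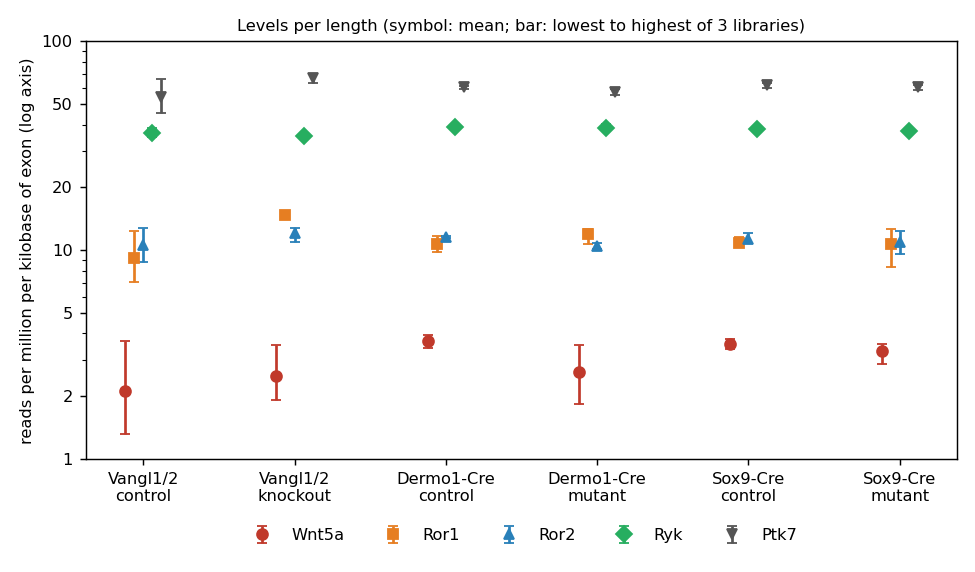
Levels of the 5 genes in the 6 groups, in RPKM on a log axis, with symbols for the mean and bars from the lowest to the highest of 3 libraries. Ptk7 was highest (54.5 to 66.9) and Wnt5a lowest (2.13 to 3.69) in every group, and the ranges of Ror1 and Ror2 overlapped except in the Vangl1/2 knockouts.

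The share of each receptor in the 4 was then taken. Of their summed level per kilobase, Ptk7 held between 46.7% and 52.8% over the 18 libraries, Ryk between 26.6% and 36.4%, Ror2 between 8.09% and 10.3% and Ror1 between 6.93% and 11.9%. The share of Ror1 was 7.37%, 9.70% and 7.34% in the Vangl1/2 controls and 11.9%, 10.9% and 11.4% in the knockouts, without overlap, and the share of Ryk was 35.5%, 28.3% and 36.4% against 27.6%, 26.6% and 27.6%, also without overlap. How often such shares separate these groups for other genes was not counted. The summed receptors exceeded Wnt5a by a factor of 30.5 to 76.8 per kilobase, with a median of 35.8. That factor was 32.6, 36.1 and 30.5 in the Dermo1-Cre controls and 47.0, 33.4 and 65.0 in the mutants.

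Control levels at the 2 stages were set side by side. In RPM, the reads scaled to the library's total on genes, Wnt5a was at 28.8 ± 2.09 in the E12.5 Dermo1-Cre controls and at 27.8 ± 1.47 in the E13.5 Sox9-Cre controls (SD, n = 3), Ror1 at 62.0 ± 5.67 and 62.6 ± 3.64, Ror2 at 48.9 ± 0.758 and 47.9 ± 3.13, Ryk at 176 ± 1.70 and 173 ± 1.82, and Ptk7 at 325 ± 4.92 and 331 ± 10.1. The ranges of both groups overlapped for each of the 5 genes. In the Vangl1/2 controls, also at E12.5, Wnt5a was at 16.7 ± 10.4, from 10.3 to 28.7, Ror1 at 52.7 ± 16.3, Ror2 at 45.0 ± 8.5026, Ryk at 166 ± 8.30 and Ptk7 at 293 ± 57.6. Stage, Cre line and table changed together, the tables were normalized separately, and no test was made between them. Genotype differed as well, since the Vangl1/2 controls were labeled Vangl1-/- and the Wnt5a controls carried a floxed Wnt5a allele with Cre.

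Across the 18 libraries, each set against the mean of its own table, the 5 genes most like Wnt5a were Bgn, which encodes the proteoglycan biglycan (Pearson r = 0.917), Col6a2 and Col6a1, which encode chains of collagen VI (0.909 and 0.885), Kremen1, a receptor for Dickkopf proteins (0.873), and Crispld2, a secreted protein with CAP and LCCL domains (0.864). Their Spearman correlations were between 0.854 and 0.901, and without the 2 libraries farthest from the median of Wnt5a the r values were between 0.770 and 0.897. These libraries share their preparation, size factors and tissue make-up, and 6 of them are the widely spread Vangl1/2 libraries. In the 12 libraries of the Wnt5a experiments alone, Col6a2 was first of 11929 genes (r = 0.931) and Col6a1 was at rank 5 (0.863), whereas Bgn was at rank 10, Crispld2 at 15 and Kremen1 at 30. With the trend on exon length removed, Col6a2 was again first (0.910).

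**Figure D5:**
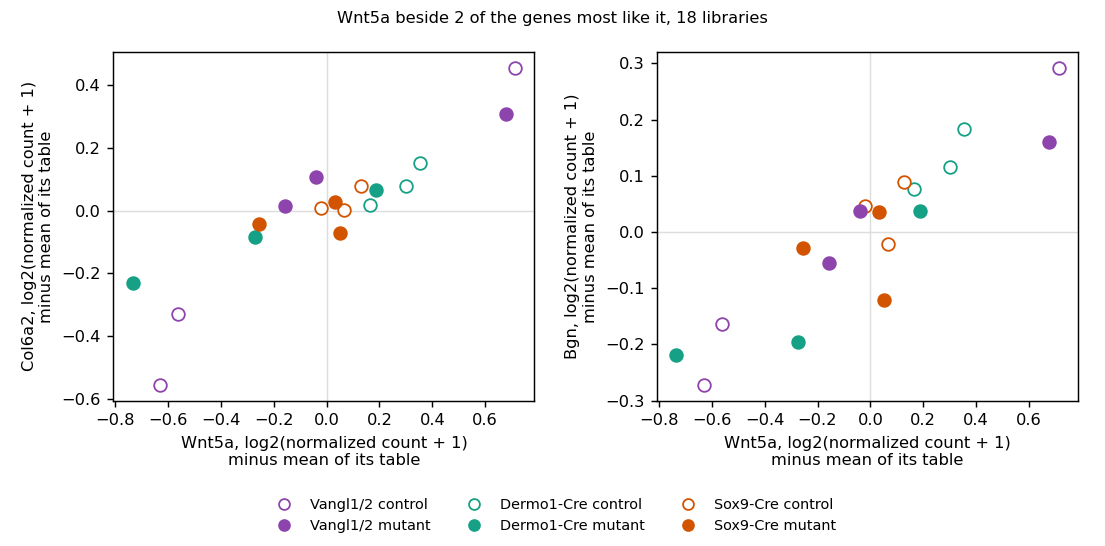
Wnt5a (horizontal axis) against Col6a2 (left) and Bgn (right) in 18 libraries, each as log2(normalized count + 1) minus the mean of its table, with open symbols for controls, filled symbols for mutants and 1 color per experiment. The values had r = 0.909 with Col6a2 and 0.917 with Bgn, the 3 libraries lowest in Wnt5a were Dermo1-Cre mutant replicate 3 and Vangl1/2 control replicates 3 and 1, and the highest was Vangl1/2 control replicate 2.

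The receptors had other neighbors. Ror1 was most like Larp4b, Nup153 and Ankrd26 (r = 0.978, 0.975 and 0.974), and Ror2 most like Dact3, a Dishevelled-binding protein (0.904), Cdr2l (0.884) and Scaf1 (0.864). Ryk was most like Btbd1, Sap30 and Fam57a (0.858, 0.827 and 0.825). Ptk7 was most like Zmynd8, Lrp5 and Nisch (0.972, 0.971 and 0.965), and with the trend on exon length removed these values were 0.467, 0.546 and −0.304. Without the 2 libraries farthest from the median of the receptor, these 12 values lay between 0.699 and 0.961. Among the members themselves, Ptk7 had r = 0.776 with Ror2 (Spearman 0.719, and 0.564 without the 2 farthest libraries) and 0.740 with Ror1 (Spearman 0.509, and 0.407 without them), and Ryk had negative values with the other 4 (−0.309 to −0.602). Ror1 and Ror2 had r = 0.296 (−0.211 without the 2 farthest). Over the 12 libraries of the Wnt5a experiments several signs were the opposite, with r = −0.731 for Ror1 and Ror2, −0.215 for Ror1 and Ptk7, 0.407 for Ryk and Wnt5a and 0.228 for Ryk and Ror1, whereas Ror2 and Ptk7 had 0.703. These values are descriptions of libraries that share tables and tissue make-up.

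Other genes of the pathway were described from 3 lists: 21 surface partners (Frizzled receptors, Lrp5, Lrp6, Vangl proteins, glypicans and other co-receptors), 15 genes of Wnt secretion and extracellular modulation, and 44 intracellular and receptor-processing genes. Of these, 20, 13 and 44 were tested in each experiment, and Musk, Sfrp4 and Dkk1 were too low. In the Vangl1/2 experiment 1 surface partner passed the adjusted threshold, Vangl2 itself. At an unadjusted p under 0.05, 6 surface partners were higher and 1 lower, 0 secretion genes higher and 2 lower, and 12 intracellular genes higher and 1 lower, where 12% of all genes were higher and 8.56% lower. The 1 lower surface partner was the deleted Vangl2, and the 6 higher ones included Vangl1, which carries the trapped allele in both groups. The medians of the lists were 0.27, −0.014 and 0.21 on the log2 scale, beside −0.0093 over all genes. With the trend on exon length removed, 7 surface partners were higher and 1 lower, 2 secretion genes higher and 1 lower, and 2 intracellular genes higher and 3 lower, and the medians were 0.26, 0.12 and 0.023. Without control replicate 2, 12 surface partners, 1 secretion gene and 19 intracellular genes passed the adjusted threshold in the higher direction, and 1, 1 and 4 in the lower, against 21.7% and 22% of all genes. With the length trend removed as well, 10, 3 and 4 passed in the higher direction and 1, 1 and 4 in the lower, against 10.3% and 17.6% of all genes.

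By the size of the p-value, leading genes of the lists in the Vangl1/2 experiment, beside Vangl2, were the following. Fzd3, a Frizzled receptor of planar cell polarity, had 684 to 1086 normalized counts in the controls and 1212 to 1349 in the knockouts (log2 fold change 0.64). Cthrc1, a secreted protein that binds Wnt, Frizzled and Ror2, had 515 to 535 and 321 to 454 (−0.54). Wnt11, another noncanonical ligand, had 517 to 592 and 407 to 487 (−0.29). Mib1, an intracellular ubiquitin ligase, had 475 to 790 in the controls and 961 to 1262 in the knockouts (0.77). Each of these 4 genes was without overlap, with an adjusted p of 0.233 from limma. They were named for their small p-values, and of all genes tested 13.6% were higher and 8.68% lower without overlap. Vangl1, whose trapped allele every library of this experiment carries, had 162, 219 and 113 normalized counts in the controls and 239, 274 and 242 in the knockouts (0.65 on the log2 scale, limma, adjusted p = 0.233).

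In the Dermo1-Cre experiment 0 genes of the 3 lists passed the adjusted threshold of limma or edgeR, and DESeq2 on the recovered reads called 1 intracellular gene, Mapk10. At an unadjusted p under 0.05, 0 surface partners were higher and 2 lower, 0 secretion genes either way, and 3 intracellular genes higher and 2 lower, beside 5.42% of all genes higher and 4.76% lower. The medians were −0.018, −0.0053 and −0.025. Antxr1, a surface receptor that binds collagen, had 2268 to 2437 normalized counts in the controls and 2007 to 2218 in the mutants (log2 fold change −0.15, limma, adjusted p = 0.398), and Lrp5, a co-receptor of canonical Wnt signaling, had 1896 to 2092 and 1706 to 1904 (−0.14). Wnt11 had 352 to 394 and 303 to 351 (−0.18), and Sfrp5, a secreted Wnt inhibitor, had 8.02 to 26.8 and 17.1 to 40.9 (0.88). Mapk10, the neuronal Jun kinase, had 22.1 to 26.8 in the controls and 39.3 to 74.9 in the mutants (1.30, limma, adjusted p = 0.190), and Celsr3, a polarity cadherin of neurons, had 15.0 to 18.1 and 25.2 to 37.9 (0.94). With these genes, the 6 neuron markers were all higher at an unadjusted p under 0.05, and summed to between 376 and 696 normalized counts in the controls and between 883 and 2130 in the mutants. Their part in the Mapk10 and Celsr3 values was not tested.

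In the Sox9-Cre experiment 0 genes of the 3 lists passed the adjusted threshold, by limma, edgeR or DESeq2. At an unadjusted p under 0.05, 1 surface partner was higher and 2 lower, 1 secretion gene lower and 3 intracellular genes lower, beside 1.08% of all genes higher and 2.81% lower. The medians were −0.039, −0.21 and −0.024, beside 0.0013 over all genes. Fzd6, a Frizzled receptor of planar cell polarity, had 308 to 321 normalized counts in the controls and 264 to 269 in the mutants (log2 fold change −0.24), and Gpc4, a glypican, had 504 to 598 and 435 to 510 (−0.24). Sfrp1, a secreted Frizzled-related protein, had 2691 to 3153 and 2145 to 2495 (−0.30), and Sfrp5 had 32.9 to 53.5 and 5.13 to 45.9 (−1.44). Camk2a and Camk2d, calcium-dependent kinases downstream of Wnt5a in some cells, had log2 fold changes of −0.89 and −0.17. The adjusted p from limma was 0.9999 for each of these. The 8 cardiomyocyte markers summed to between 5084 and 17967 normalized counts in the controls and between 1006 and 5500 in the mutants, with 6 of the 8 lower at an unadjusted p under 0.05. The 6 neuron markers had a median log2 fold change of −0.87, with 1 lower at that p and sums of 1094 to 1557 in the controls and 466 to 1572 in the mutants, and 4 of the 6 mesothelium markers were lower (median −0.43). The part of such cells in these values was not tested.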

How the data were processed

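Total lung RNA was sequenced in 18 libraries, 3 for each of 6 groups, whose labels give the groups. The deposited values are a normalized signal, for which the authors scaled each library's reads on each gene by 1 factor per library. The submitters' processing notes name Trim Galore, HISAT2, featureCounts, DESeq2 and build mm10, and versions and strand settings are not given in the sources used here. Deposited columns with the authors' own fold changes, p-values and means were not used. All 18 columns gave whole reads (tolerance 0.001), so depth and counting error were known.

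In each table, log2(normalized count + 1) was tested with limma 3.58.1 in R 4.3.3, with a variance trend, for genes that reached 10 normalized counts in 3 or more libraries, with Benjamini-Hochberg adjustment over all genes tested and a threshold of 0.05. The fold changes are on that log2 scale. Alternatives were edgeR 4.0.16 and DESeq2 1.42.0 on recovered reads, TMM scaling, no filter, a minimum of 50, a pseudocount of 8, no variance trend, the replicate number as a block, removal of a spline on exon length (5 degrees of freedom) and leaving out each library. Exon lengths came from GENCODE release M21, which matched 98.3% of 23418 names. Statistical code was tested on simulated data. Named genes were the members, Vangl1 and Vangl2, listed pathway genes past the threshold or among the 2 smallest p-values of their list, and the genes most correlated with each member (5 for Wnt5a, 3 for each receptor, from a mean of 50 normalized counts in every table). One gene that this rule names is not reported here. Twist2 and the markers were added for context. The members, lists and rules were chosen with earlier results of these data known.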

Additional observations from a re-analysis of the deposited data

Results flagged for a closer look

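Ror2 and Ptk7 were on opposite sides of their control means in the Vangl1/2 and Dermo1-Cre experiments, both at E12.5. How many of all genes did so was not counted. Ror2 had a log2 fold change of 0.17 in the Vangl1/2 knockouts, each of which was above its own control mean (100.6% to 119% of it), and of −0.14 in the Dermo1-Cre mutants, each of which was below (87.6% to 92.9%). Ptk7 had a log2 fold change of 0.28 in the Vangl1/2 knockouts (116% to 126%) and of −0.084 in the Dermo1-Cre mutants (91.6% to 97.1%). Relative to the mesenchyme markers of the same library, the opposite directions did not hold for Ptk7, at a mean of 109% of the control mean in the Vangl1/2 knockouts and 104% in the Dermo1-Cre mutants, and Ror2 was at 100.6% and 99.8%. These markers include Twist2, itself at a mean of 74.8% of its controls in the Vangl1/2 knockouts and 60.7% in the Dermo1-Cre mutants. Ratios without Twist2 were not taken, so its part in these values was not tested. None of these 4 fold changes passed the adjusted threshold of limma with all libraries. The difference was not tested, since the experiments have separate controls and the tables were normalized separately, and they compare different genotypes.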

How the results depend on the processing

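With all 6 libraries, no member passed the adjusted threshold in any of the 9 other planned settings, in which the adjusted p ranged from 0.0951 (Ror1, Vangl1/2, DESeq2) to 0.99998, and of the 135 member fold changes in these settings 133 kept their direction and side of the threshold. With the length trend removed, the Sox9-Cre log2 fold changes were 0.0031 for Ror1 and 0.019 for Ptk7, the reverse of their sign in the main test. In that setting the Vangl1/2 values were 0.12 for Wnt5a, 0.60 for Ror1, 0.17 for Ror2, −0.11 for Ryk and 0.22 for Ptk7. In the main test they were 0.32, 0.69, 0.17, −0.093 and 0.28. With 1 library left out, the members were at log2 fold changes (Vangl1/2, then Dermo1-Cre, then Sox9-Cre) of 0.060 to 0.76, −0.78 to −0.32 and −0.17 to −0.017 for Wnt5a, 0.55 to 0.89, 0.072 to 0.23 and −0.18 to 0.16 for Ror1, 0.067 to 0.27, −0.16 to −0.12 and −0.12 to 0.027 for Ror2, −0.14 to −0.044, −0.059 to 0.0064 and −0.061 to −0.020 for Ryk, and 0.19 to 0.39, −0.10 to −0.062 and −0.043 to 0.0040 for Ptk7. The reversals among these had values between 0.0040 and 0.16, namely 0.0064 for Ryk in Dermo1-Cre without mutant replicate 3, and in Sox9-Cre 0.013 (without control replicate 3) and 0.16 (without mutant replicate 1) for Ror1, 0.0070 (without control replicate 2) and 0.027 (without mutant replicate 3) for Ror2, and 0.0040 (without control replicate 2) for Ptk7. In the Vangl1/2 experiment, control replicate 2 decided the calls of Wnt5a, Ror1, Ror2 and Ptk7. Without it and with the length trend removed, a setting chosen after seeing the data, Ror1 had 0.76 and Ptk7 0.30. The genes called numbered, in the same order of experiments, 1, 2 and 0 in the main test, 20, 102 and 11 with DESeq2, 0, 0 and 0 without a variance trend, and 0 to 6180, 0 to 52 and 0 to 13 with 1 library left out. The Sox9-Cre count of 0 went with 557 genes at an unadjusted p under 0.05. With the length trend removed, 1 gene was called in Dermo1-Cre, and 3958 in Vangl1/2 without control replicate 2. Without that library, 13 surface partners, 2 secretion genes and 23 intracellular genes passed, against 1, 0 and 0 with it, a count also added after seeing the data.

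The sample titles give replicate numbers and do not say whether these pair the samples. Deviations of same-numbered libraries had correlations of 0.0126 to 0.303 in Vangl1/2, −0.223 to 0.073 in Dermo1-Cre and −0.12 to 0.132 in Sox9-Cre. Those of libraries with different numbers were −0.264 to 0.15, −0.282 to 0.341 and −0.22 to 0.155. With 3 libraries a group these values cannot decide whether the samples were paired. With the replicate number as a block, 0, 16 and 0 genes were called and no member, and Ror1 in Vangl1/2 had a log2 fold change of 0.69 (limma, adjusted p = 0.214).

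Per kilobase of the longest coding transcript, the control means were 58.2 (Vangl1/2), 61.6 (Dermo1-Cre) and 60.6 (Sox9-Cre) for Ryk, 69.2, 76.7 and 78.2 for Ptk7, 4.11 (Dermo1-Cre) and 3.97 (Sox9-Cre) for Wnt5a and 12.3 (Dermo1-Cre) for Ror2, and with TMM over 18 libraries Ryk in the Sox9-Cre controls was at an RPM of 171. Of the 5 genes most like Wnt5a, 2 were still among the first 5 in the 12 libraries of the Wnt5a experiments, 3 with the length trend removed and 0 when libraries were centered on their group. Of the 3 most like each receptor, 0 were for Ror1, Ror2, Ryk and Ptk7 in the 12 libraries, 0 for Ptk7 with the length trend removed, and 1 each for Ror2, Ryk and Ptk7 when centered on groups. Centered on groups, the 5 genes most like Wnt5a had r values of 0.849 to 0.920 with it, at ranks 6 to 72 of 11929. With 3 libraries a group, a single-gene exact test cannot go below 0.1, and the interval of Wnt5a in the Vangl1/2 experiment, −0.54 to 1.17, is the widest of the members'.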
